A study of Homo sapiens with 8 samples.

Results

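The genes described here encode the nuclear subunits of the respiratory chain. They were chosen by symbol in the array's annotation: names that start with NDUFA, NDUFB, NDUFC, NDUFS or NDUFV and a digit (complex I), with UQCR (complex III), with COX and a number from 4 to 8 (complex IV) or with ATP5 (ATP synthase), and the succinate dehydrogenase genes SDHA to SDHD (complex II). The rule matched 78 symbols, of which 70 had a probe detected (detection p under 0.05) on at least 2 of 8 arrays. For each gene the kept probe with the highest mean was used. The 70 comprised 31 genes of complex I, 3 of complex II, 9 of complex III, 10 of complex IV and 17 of ATP synthase, among 19124 genes and unnamed probes tested in all. Of the 19124, 12590 were named genes and the others were unnamed probes tested singly. Below, all genes or all genes tested means this whole set, which is thus unlike the members. The symbol rule also took in ATP5IF1, an inhibitor of ATP synthase, and the near-copies UQCRHL, UQCRBP1 and ATP5F1EP2, whose probes may also bind transcripts of UQCRH, UQCRB and ATP5F1E.

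The respiratory chain sits in the inner mitochondrial membrane. Complexes I and II pass electrons from NADH and succinate to ubiquinone, complex III passes them on to cytochrome c, and complex IV passes them to oxygen, while the proton gradient that complexes I, III and IV build drives ATP synthase. Most subunits are encoded in the nucleus and assembled with subunits made inside the mitochondrion, and human embryonic stem cells are known to make much of their ATP by glycolysis while keeping a working chain.

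Expression was measured in 4 lines of H9 human embryonic stem cells, an established line, with 2 arrays each. The control lines were unmodified parental H9 and clone 3, a wild-type line grown from H9 as a clone, and the ZFX lines were clones 2 and 5. Both ZFX lines carried an added bacterial artificial chromosome with the ZFX locus (ZFX encodes an X-linked zinc finger transcription factor) and had been selected by drug resistance. All lines were grown alike under usual conditions for such cells. Each clone is a single derivation, and the labels do not say whether clone 3 was drug-selected, so the added locus, selection and clonal differences cannot be told apart. Whether both arrays of a line stem from separate cultures is not stated, so p-values between lines rest on a spread that may be technical.

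Between 19177 and 20588 of 48802 probes were detected per array, and the number of arrays limits the precision. ZFX was higher in the ZFX lines by 1.34 on the log2 scale (SE 0.163, limma adjusted p = 0.000241). Of 9 markers of undifferentiated embryonic stem cells, 8 were detected on both arrays of every line, with summed log2 levels of 88.6 to 89.8 over all arrays. The sum can hide opposite changes in single markers. In limma at an adjusted p under 0.05, NANOG was higher and POU5F1, DNMT3B and L1TD1 lower in clone 3 than in H9. Against H9, POU5F1 was also lower in clone 2 and ZFP42 in clone 5. Clone 3 stood apart, correlating across genes with other lines at 0.981 to 0.985, against 0.986 to 0.992 among the others. All 7 primitive streak markers were detected on both arrays of clone 3, 4 in H9 and 1 in each ZFX line. Their summed log2 level was 54.7 to 55.0 in clone 3, 35.2 to 35.4 in H9, 32.5 to 33.0 in clone 2 and 31.8 to 32.4 in clone 5, and the part of this in the results on clone 3 was not tested.

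The respiratory chain was expressed in every line. Of the 70 genes, 67 (95.7%) were detected on all 8 arrays, against 64.3% of all genes tested, a set that includes the unnamed probes. The exceptions were 3 accessory subunits of complex I. NDUFC2 was detected on 2 arrays, 1 of each ZFX line, NDUFA5 on 4 and NDUFB4 on 5. NDUFC2 was thus just inside the detection rule, and ATP5MK, a small membrane subunit of ATP synthase that was detected on 1 array, was just outside it. The other 7 genes without a kept probe were detected on 0 arrays. They were 6 subunits of complex IV (COX4I2, COX6A2, COX6B2, COX7A1, COX7B2 and COX8C) and NDUFS6 of complex I. Those 6 are isoforms known mainly from lung, from heart and skeletal muscle or from testis, and the common isoforms COX4I1, COX6A1, COX6B1, COX7A2, COX7B and COX8A were detected on all arrays.

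Between ZFX lines and control lines, 0 of the 70 genes passed the test in limma at an adjusted p under 0.05, where 1.68% of all genes tested did. At an unadjusted p under 0.05 there were 4 of 70 (5.71%), which were ATP5PD, ATP5PB, NDUFA11 and NDUFA9, against 10.3% of all genes. The median log2 difference of the 70 was -0.0070, and that of all genes was -0.0016. Under median scaling of the arrays these medians were -0.10 and -0.037. The differences ran from -0.33 (ATP5PD) to 0.35 (NDUFC2), so 0 lay beyond 0.5 in either direction, against 3.95% of all genes. The 95% interval of the difference lay within 0.5 of zero for 64 of the 70 (91.4%), against 63.7% of all genes. A change of that size was thus outside the interval for most members. It was not outside for NDUFA9, NDUFB1, NDUFC2, NDUFS1, UQCRBP1 and ATP5PD. The interval uses the same correlation of arrays within a line (0.353) for every gene, with few lines in each group. It may be too narrow for genes that vary more between lines, so it does not exclude such a change. The median standard error was 0.104 for the 70 and 0.161 for all genes, and the genes were not matched on brightness. All 4 ZFX arrays lay above all 4 control arrays for 1 of the 70 genes (1.43%), against 5.48% of all genes, and below them for 3 (4.29%), against 4.47%. The plot of differences by complex shows the members scattered about zero.

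**Figure D1:**
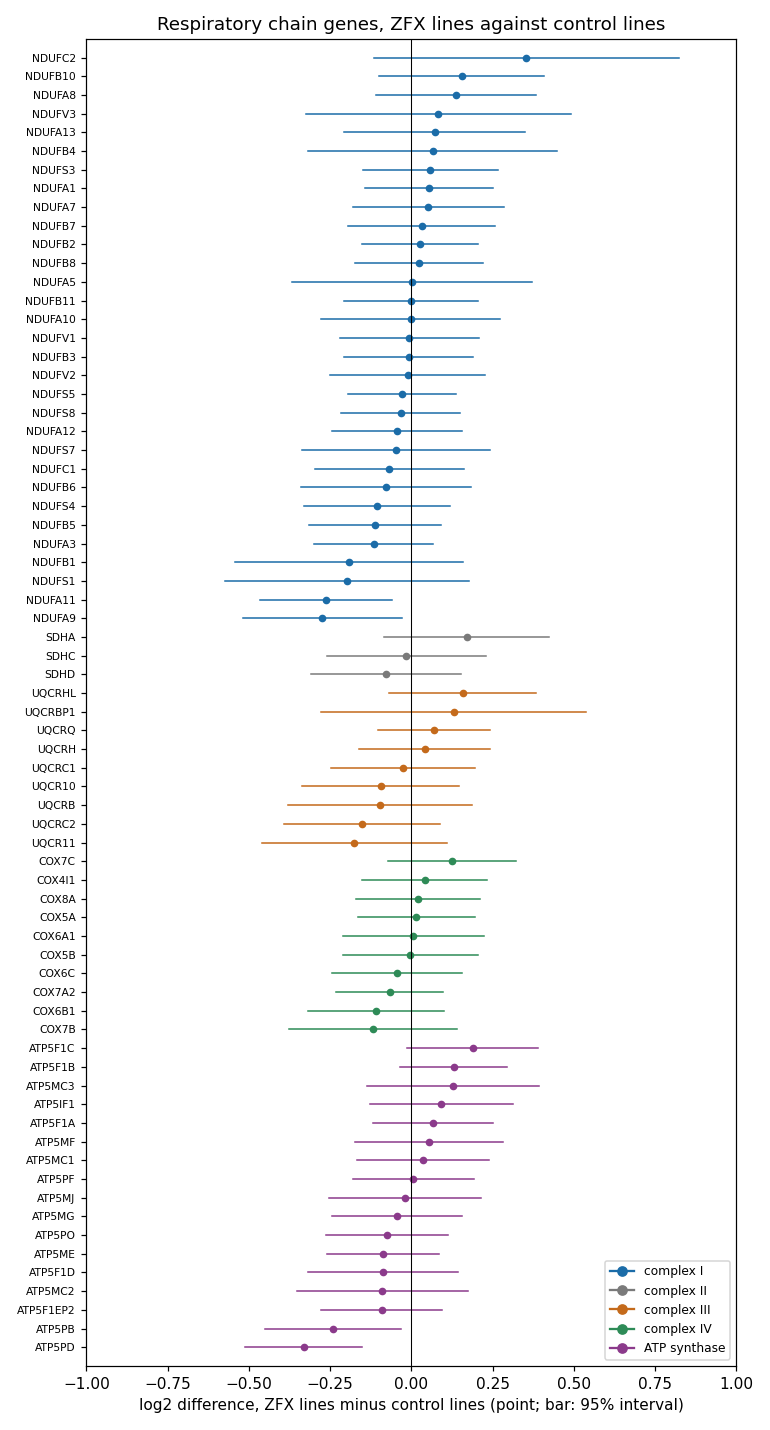
Log2 difference between ZFX lines and control lines (horizontal axis; points) with its 95% interval (bars) for each of the 70 genes, ordered by complex and size. All points lie between -0.33 and 0.35, with ATP5PD lowest and NDUFC2 highest.

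ATP5PD, subunit d in the peripheral stalk that holds the ATP synthase head still, came closest to the threshold. Its log2 intensity was 12.35 and 12.35 on the H9 arrays, 12.47 and 12.35 in clone 3, 11.96 and 12.07 in clone 2, and 12.13 and 12.03 in clone 5. The 4 ZFX arrays lay below the 4 control arrays without overlap. The log2 difference was -0.33 (SE 0.0854), a fold of 0.794, with a limma adjusted p of 0.0579. That adjusted p ran from 0.00373 to 0.175 over 13 alternatives, and it was under 0.05 in 2 of them, against H9 alone (0.0245) and against clone 3 alone (0.00373). In further alternatives, for which calls only were recorded, ATP5PD also passed without a filter on dim probes and with the line ignored. In the test of line pairs, which uses the spread within lines, ATP5PD was lower in clones 2 and 5 than in either control, in 4 pairs out of 4. It was the only 1 of 70 (1.43%) with a call of the same sign in all 4 pairs, against 1.79% of all genes. The pairs share lines, so they are not 4 separate observations. Under median scaling of the arrays, only the call of clone 2 against clone 3 was kept among these 4. The call of clone 5 against H9 (limma adjusted p = 0.0444) was lost in most of 11 alternatives, with a log2 difference of -0.33 to -0.22. A second ATP5PD probe had a log2 difference of -0.29 between ZFX and control lines (limma adjusted p = 0.183 over all kept probes). That probe passed in both pairs with clone 3 and in neither pair with H9.

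The other 3 genes with a low unadjusted p did not pass the adjusted test. ATP5PB, subunit b of the same stalk, measured 11.58 and 11.45 in H9, 11.40 and 11.53 in clone 3, 11.34 and 11.12 in clone 2, and 11.18 and 11.34 in clone 5. The ZFX arrays were all below the control arrays by a narrow margin, and the log2 difference of -0.24 (SE 0.0988) had a limma adjusted p of 0.349. NDUFA11, an accessory subunit in the membrane arm of complex I, measured 10.90 and 11.12 in H9, 10.95 and 11.01 in clone 3, 10.63 and 10.74 in clone 2, and 10.84 and 10.72 in clone 5. It too was lower on every ZFX array, with a log2 difference of -0.26 (SE 0.0965, limma adjusted p = 0.26). NDUFA9, an accessory subunit near the ubiquinone site of complex I, had a log2 difference of -0.27 (SE 0.117, limma adjusted p = 0.385). Its groups overlapped, from 8.96 to 9.34 on the control arrays and from 8.81 to 8.97 on the ZFX arrays. In the opposite direction, ATP5F1B, the catalytic beta subunit of the ATP synthase head, was the gene with all ZFX arrays (12.78 to 12.89) above all control arrays (12.67 to 12.76). Its log2 difference was 0.13 (SE 0.0783, limma adjusted p = 0.672).

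**Figure D2:**
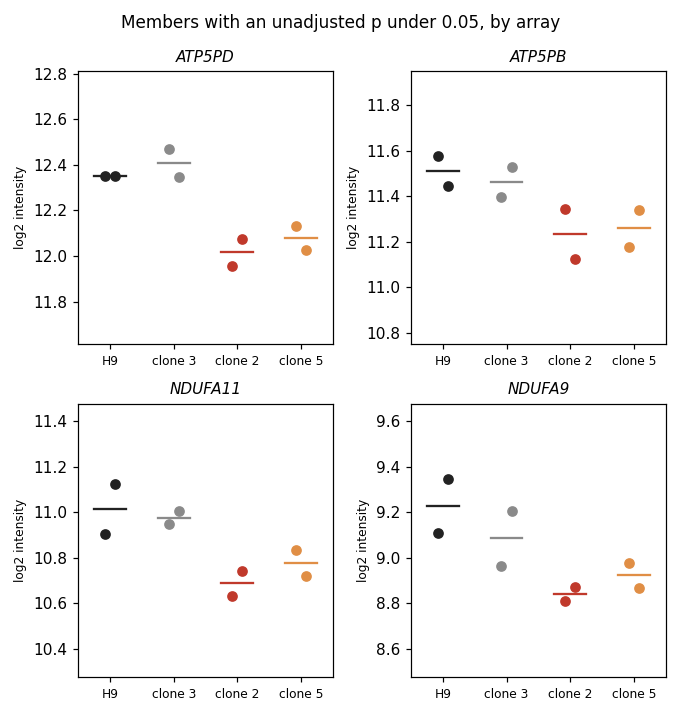
Log2 intensity (vertical axis, of the same length in each panel) of ATP5PD, ATP5PB, NDUFA11 and NDUFA9 on each array (points), with the mean of each line (bars). The ZFX clones 2 and 5 lie below H9 and clone 3 without overlap for the first 3 genes.

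Within complex I, the median log2 difference between ZFX and control lines was -0.0061 over 31 genes. The 6 members that encode catalytic core subunits, which carry the flavin, the iron-sulphur clusters or the ubiquinone site, had log2 differences of 0.06 (NDUFS3), -0.01 (NDUFV1), -0.01 (NDUFV2), -0.03 (NDUFS8), -0.05 (NDUFS7) and -0.20 (NDUFS1), and none of them passed. Among the accessory subunits, NDUFC2 had the highest difference, 0.35 (SE 0.223, limma adjusted p = 0.701), but it was detected on 0 of 4 control arrays and entered the test only through 1 array of each ZFX line. Its fitted difference at this dim level is not a measure of size, and the control arrays (4.47 to 4.75) overlapped the ZFX arrays (4.57 to 5.33). In complex II, SDHA, the flavoprotein that oxidises succinate, had the highest log2 difference at 0.17 (SE 0.12, limma adjusted p = 0.771). SDHD, a membrane anchor, had the lowest at -0.08, and the median of its 3 genes was -0.015.

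Complex III had a median log2 difference of -0.026 over 9 genes. Its extremes were UQCRHL at 0.16 (limma adjusted p = 0.752) and UQCR11, a small accessory subunit, at -0.18 (limma adjusted p = 0.81). Its core proteins UQCRC1 and UQCRC2, which are related to mitochondrial processing peptidases, had differences of -0.03 and -0.15. Complex IV had all 10 genes between -0.12 (COX7B) and 0.13 (COX7C), both of them accessory subunits, around a median of 0.0014. ATP synthase had a median of -0.019 over 17 genes. Its subunits divide by place in the machine. In the head and central stalk, ATP5F1A, ATP5F1B and ATP5F1C had log2 differences of 0.07, 0.13 and 0.19, and ATP5F1D had -0.09. The near-copy ATP5F1EP2 also had -0.09. In the peripheral stalk, ATP5PD and ATP5PB had -0.33 and -0.24, while ATP5PO and ATP5PF had -0.08 and 0.01. Second probes of ATP5F1A and ATP5F1D gave -0.05 and -0.20, and those of ATP5PD and ATP5PB gave -0.29 and -0.22. No difference between these groups was tested, because the grouping was made with the values known.

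Several subunits have more than one gene. The 3 genes for the identical mature c subunit of the proton-driven ring had log2 differences between ZFX and control lines of 0.04 (ATP5MC1), -0.09 (ATP5MC2) and 0.13 (ATP5MC3). The common isoforms of complex IV stood at 0.04 (COX4I1), 0.01 (COX6A1), -0.11 (COX6B1), -0.07 (COX7A2), -0.12 (COX7B) and 0.02 (COX8A). All their limma adjusted p-values were between 0.868 and 0.998. Signs this close to zero are not settled: those of COX4I1, COX6A1, COX8A and ATP5MC1 turned under median scaling of the arrays.

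Promoter sequence was available in RefSeq (GRCh38.p14) for 57 of the 70 genes, as windows of 250 bases before and 50 after each gene's start, along with windows for 27305 promoters in all. A single window was taken per symbol, and the 27305 were not limited to genes tested or detected here. The shares below thus set mostly detected members beside an unlike set. Either strand was searched for exact letters. The NRF1 motif GCGCATGCG, named for the nuclear respiratory factor, was in 8 windows (14.0%), against 2.04% of all promoters. The ETS family motif CCGGAAG, bound by GABP among others, was in 18 (31.6%, against 10.6%) and the YY1 motif AAGATGGC in 10 (17.5%, against 3.0%). Those of the SP family, GGGCGGGG, and of ZFX, AGGCCT, were in 13 (22.8%, against 22.4%) and 5 (8.77%, against 10.9%). A match is a description of letters only. The 250 bases before the start are shown for ATP5PD (chr17:75046970-75047219, minus strand) because it came closest to a call, for NDUFS7 (chr19:1383657-1383906, plus strand) and NDUFB6 (chr9:32573160-32573409, minus strand) because they differed most between the control lines among genes with calls that withstood leaving out any array, and for NDUFB10 (chr16:1959288-1959537, plus strand) because it differed between the ZFX lines. Capitals mark the ETS motif in ATP5PD, whose first base is at -101 from the start, and the NRF1 motif in NDUFS7, at -74, both on the other strand.
ATP5PD: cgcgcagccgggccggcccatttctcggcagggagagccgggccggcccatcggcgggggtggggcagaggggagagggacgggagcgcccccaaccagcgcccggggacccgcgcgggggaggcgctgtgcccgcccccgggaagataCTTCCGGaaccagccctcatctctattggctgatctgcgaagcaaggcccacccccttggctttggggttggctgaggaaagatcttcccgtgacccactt
NDUFS7: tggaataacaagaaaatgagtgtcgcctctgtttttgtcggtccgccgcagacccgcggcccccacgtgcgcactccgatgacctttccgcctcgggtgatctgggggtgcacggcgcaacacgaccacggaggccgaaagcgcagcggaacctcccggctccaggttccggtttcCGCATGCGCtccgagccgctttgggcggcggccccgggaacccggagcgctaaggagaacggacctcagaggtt
NDUFB6: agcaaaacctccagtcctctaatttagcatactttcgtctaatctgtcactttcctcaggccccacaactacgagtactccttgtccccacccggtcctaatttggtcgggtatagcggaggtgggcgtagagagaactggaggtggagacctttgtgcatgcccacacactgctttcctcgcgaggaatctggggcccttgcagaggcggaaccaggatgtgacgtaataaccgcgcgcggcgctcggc
NDUFB10: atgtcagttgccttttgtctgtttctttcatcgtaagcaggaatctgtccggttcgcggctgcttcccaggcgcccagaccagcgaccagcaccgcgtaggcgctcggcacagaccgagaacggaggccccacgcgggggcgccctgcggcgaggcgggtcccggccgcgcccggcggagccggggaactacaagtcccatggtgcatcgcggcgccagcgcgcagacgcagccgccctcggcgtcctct
The windows of NDUFB6 and NDUFB10 held none of the 5 motifs, and that of NDUFS7 also held a YY1 motif at 18, past the stretch shown.

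Between single lines, the respiratory chain genes that passed the test were about as many as, or fewer than, the share of all genes would give. Clone 2 against H9 had 11 of 70 (15.7%), against 15.2% of all genes tested, and clone 5 against H9 had 4 (5.71%), against 5.54%. Clone 2 against clone 3 had 6 (8.57%), against 16.2%, and clone 5 against clone 3 had 7 (10%), against 17.1%. Clone 3 against H9, the controls, had 11 (15.7%), against 19.8%, and clone 5 against clone 2 had 2 (2.86%), against 3.27%. These comparisons share lines and are not independent. Under median scaling the same 6 counts were 0, 0, 1, 0, 1 and 0, and without an intensity trend in the variance they were 1, 0, 0, 0, 2 and 0. A log2 difference beyond 0.5 occurred for 2 of the 70 (2.86%) between clone 3 and H9, against 9.57% of all genes, and for 0 in the other 5 comparisons, on the brightest probe of each gene. The median SD between the means of the 4 lines was 0.105 for the 70 and 0.144 for all genes, and within lines it was 0.0858 and 0.131.

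**Figure D3:**
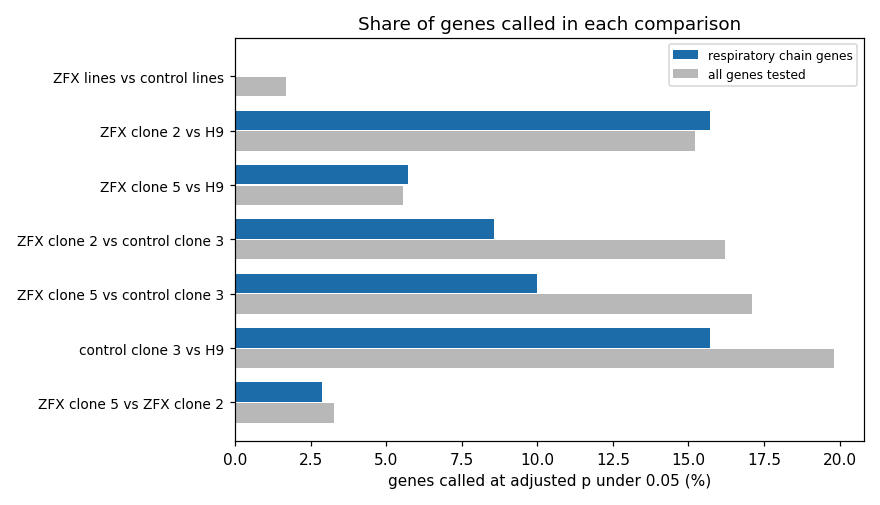
Share of genes with an adjusted p under 0.05 (horizontal axis, percent) among the 70 respiratory chain genes (upper bar) and among all 19124 tested (lower bar) in each comparison. The largest shares of respiratory chain genes, 15.7%, are those of clone 2 and of clone 3 against H9.

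The 2 control lines differed in 7 genes that were higher in clone 3 than in H9 (9.85% of all genes were higher) and 4 that were lower (9.91%). NDUFS7, the core subunit that carries the last iron-sulphur cluster before ubiquinone, measured 8.77 and 8.94 in H9 and 9.38 and 9.34 in clone 3, with clone 2 at 9.01 and 9.11 and clone 5 at 8.95 and 9.16. Clone 3 lay above all other arrays. Its log2 difference from H9 was 0.51 (SE 0.0934, limma adjusted p = 0.000184). COX7B measured 10.19 and 9.85 in H9, 10.39 and 10.42 in clone 3, 10.11 and 10.14 in clone 2, and 10.08 and 10.06 in clone 5. It was again highest in clone 3, by 0.38 over H9 (SE 0.0906, limma adjusted p = 0.00256), although without H9 replicate 2 this was 0.22 and did not pass (limma adjusted p = 0.149). NDUFS4, an accessory subunit needed for a stable complex I, was higher by 0.31 (limma adjusted p = 0.00686) and lost its call without H9 replicate 2 (0.0809) or clone 3 replicate 2 (0.0542). The near-copy UQCRBP1 had the largest difference, 0.52 (SE 0.139, limma adjusted p = 0.00691). That value rests on H9 replicate 2, at 9.15, since the other 7 arrays lay between 9.94 and 10.11, and without it the difference was 0.098. NDUFS3 and ATP5MF were higher in clone 3 by 0.26 and 0.25, and with NDUFA8 they completed the 7. In place of 11 calls in all, 5 were made without H9 replicate 2, 7 without clone 3 replicate 1 and 4 without clone 3 replicate 2.

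A second pattern had H9 apart from all 3 clones. It is described here for 3 genes, and how many genes share it was not counted. Others had it too, such as NDUFS3 (11.06 and 10.96 in H9, 11.08 or above on the other arrays). ATP5PO measured 11.91 and 11.89 in H9 and at most 11.81 on the other arrays. NDUFS7, ATP5F1C, COX4I1, UQCR11, NDUFA7 and NDUFA12 also had both H9 arrays outside the range of the clones. So did NDUFB1, UQCR10, ATP5F1D, ATP5F1EP2, UQCRQ and ATP5F1B, and the list may not be complete. NDUFA8, an accessory subunit of the complex I membrane arm, measured 10.80 and 10.67 in H9, 11.11 and 11.10 in clone 3, 11.23 and 11.05 in clone 2, and 11.05 and 10.89 in clone 5. H9 was lowest on both arrays. The log2 difference from H9 was 0.37 in clone 3 (SE 0.0848, limma adjusted p = 0.00188), 0.41 in clone 2 (limma adjusted p = 0.00112) and 0.24 in clone 5, which did not pass. NDUFB6, another accessory subunit of that arm, measured 10.58 and 10.79 in H9, 10.20 and 10.19 in clone 3, 10.34 and 10.31 in clone 2, and 10.38 and 10.42 in clone 5. H9 was highest here. NDUFB6 was lower than in H9 by -0.49 in clone 3 (limma adjusted p = 6.4e-05), -0.36 in clone 2 (limma adjusted p = 0.00264) and -0.28 in clone 5 (limma adjusted p = 0.0376). The second NDUFB6 probe passed in none of the 3, with log2 differences of -0.08, -0.16 and -0.11, so this pattern holds for 1 probe. NDUFV2, a core subunit of the NADH-oxidising end, was lower in clone 3 by -0.38 (SE 0.084, limma adjusted p = 0.00145), with H9 again highest on both arrays, and did not pass in clones 2 and 5. The other 2 genes that were lower in clone 3 did not have H9 apart. NDUFA13, which is also known as GRIM-19, was lower by -0.32 (limma adjusted p = 0.0244), and clone 3, at 9.62 and 9.74, lay below all other arrays, whose lowest was 9.78. ATP5MC2 was lower by -0.31 (limma adjusted p = 0.0232), but H9 overlapped clone 2 and its 2 other probes gave 0.11 and 0.0017.

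**Figure D4:**
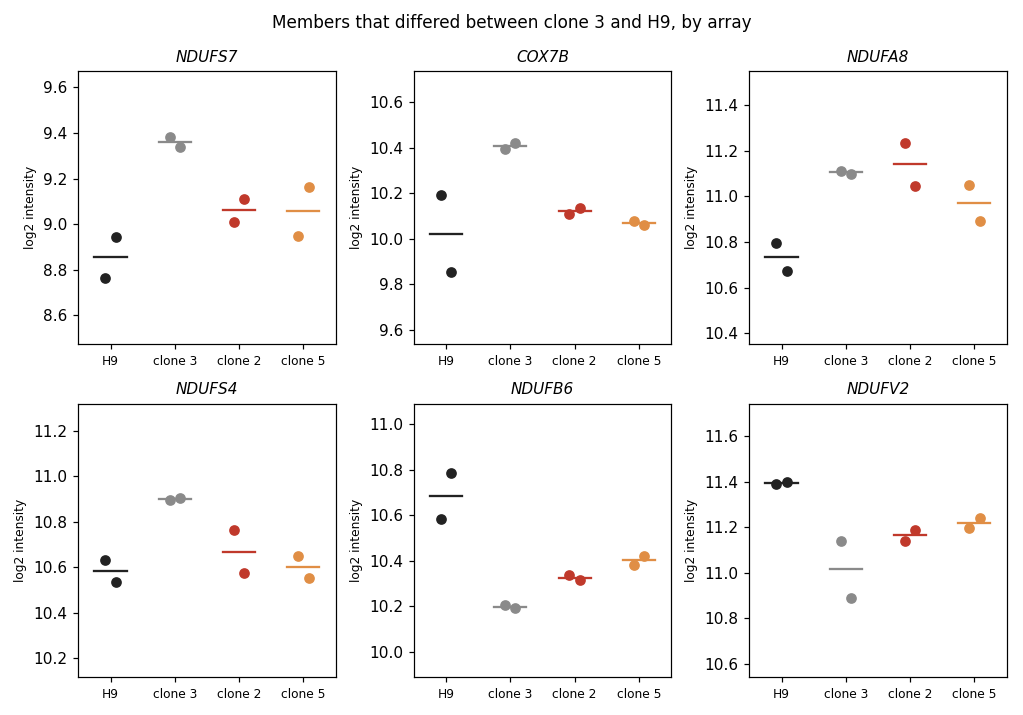
Log2 intensity (vertical axis, of the same length in each panel) on each array (points), with the mean of each line (bars), for 6 complex I and IV genes that differed between clone 3 and H9. Clone 3 is highest for NDUFS7, COX7B and NDUFS4. H9 lies apart from the 3 clones for NDUFA8, NDUFB6 and NDUFV2 and, narrowly, for NDUFS7.

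Against H9, clone 2 was higher in 4 genes (background 8.65%) and lower in 7 (6.54%). NDUFB10, an accessory subunit of the complex I membrane arm, measured 10.41 and 10.36 in H9, 10.90 and 10.77 in clone 2, 10.53 and 10.56 in clone 3, and 10.32 and 10.50 in clone 5. Clone 2 was above all other arrays, by 0.45 over H9 (SE 0.0832, limma adjusted p = 0.000327). NDUFS3, a core subunit, was higher in clone 2 by 0.27 (limma adjusted p = 0.0183), as were NDUFA8 and ATP5MF, a membrane subunit of ATP synthase, the latter by 0.26 (limma adjusted p = 0.0399) on 1 of its 2 probes. The 7 that were lower in clone 2 included 4 of ATP synthase: ATP5PD at -0.34, ATP5PB at -0.28, ATP5MG at -0.25 and ATP5PO at -0.24, with limma adjusted p-values of 0.00458 to 0.0319. Of these, a second ATP5PB probe passed too (-0.35), and the second probes of ATP5PD (-0.19) and ATP5MG (0.024) did not. The remaining 3 were NDUFA9 at -0.38, NDUFA11 at -0.33 and NDUFB6. Without clone 2 replicate 1, 3 genes were called in place of 11 (ATP5PB, NDUFB10 and NDUFB6), and without H9 replicate 2 there were 5. Clone 5 was higher than H9 in 2 genes (background 3.14%), ATP5F1C, the gamma subunit of the rotor, by 0.35 (limma adjusted p = 0.00703) and UQCRHL by 0.33 (limma adjusted p = 0.0221). It was lower in 2 (2.41%), ATP5PD by -0.27 (limma adjusted p = 0.0444) and NDUFB6. Leaving out H9 replicate 2 or clone 5 replicate 2 left 0 of these 4 calls, leaving out clone 5 replicate 1 left 1 (ATP5F1C), and leaving out clone 3 replicate 1, which changes only the shared spread, left 2.

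Against clone 3, 7.14% of the 70 genes passed as lower in each ZFX line, which was below the share of all genes tested. Fewer passed as higher, 1.43% in clone 2 and 2.86% in clone 5, also below that share. Clone 2 was higher in 1 gene (background 8.88%), NDUFB10, by 0.29 (limma adjusted p = 0.0159), and lower in 5 (7.36%). Clone 5 was higher in 2 (8.89%), COX7C by 0.29 (limma adjusted p = 0.0175) and UQCRHL by 0.27 (limma adjusted p = 0.0346), and lower in 5 (8.22%). ATP5PD, COX7B and NDUFS7 were lower in both: ATP5PD by -0.39 in clone 2 and -0.33 in clone 5, COX7B by -0.29 and -0.34, and NDUFS7 by -0.30 and -0.30. For COX7B and NDUFS7, and for NDUFS4 below, clone 3 had also been above H9, so those contrasts share the high clone 3 arrays. UQCRC2, by -0.34, and NDUFA11, by -0.29, completed the list for clone 2, as did NDUFS4, by -0.30, and NDUFB5, by -0.24, for clone 5. Leaving out clone 3 replicate 1 or 2 gave 2 and 1 calls for clone 2 and 4 and 2 for clone 5.

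The ZFX lines differed from each other in 2 genes. NDUFB10 was lower in clone 5 than in clone 2 by -0.42 (SE 0.0832, limma adjusted p = 0.00324; background 2.2%). COX5B, a zinc-binding subunit on the matrix side of complex IV, was higher in clone 5 by 0.32 (SE 0.0783, limma adjusted p = 0.0174; background 1.07%). COX5B measured 11.30 and 11.42 in clone 2 and 11.71 and 11.66 in clone 5, on either side of the 11.49 to 11.56 of the control arrays. Both calls were lost without clone 2 replicate 1 or clone 5 replicate 1, and COX5B also lost its call without clone 5 replicate 2.

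Some genes had a dimmer probe that passed where the brightest did not, with p-values adjusted over all kept probes. UQCR10, a small subunit of complex III, had 3 probes. In clone 2 against clone 3 the brightest gave -0.02 and did not pass, while the other 2 gave -0.66 (limma adjusted p = 0.00109) and -0.54 (limma adjusted p = 0.00404). In clone 3 against H9 the brightest gave -0.20 and did not pass, and 1 of the others gave 0.56 (limma adjusted p = 0.00252). The probes of UQCR10 thus disagreed in size and sign. A second ATP5F1D probe gave -0.52 in clone 2 against H9 (limma adjusted p = 0.012) and 0.51 in clone 5 against clone 2 (limma adjusted p = 0.0436), where the brightest gave -0.18 and -0.03. A second UQCRH probe gave -0.44 in clone 2 against clone 3 (limma adjusted p = 0.00787), and a second SDHA probe gave 0.33 and 0.36 in clones 2 and 5 against clone 3 (limma adjusted p = 0.0228 and 0.0122). ATP5MG, ATP5PB and SDHC also had such a probe. No gene had probes called in opposite directions within 1 comparison.

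Taken by complex, the level of the genes on each array stayed close to their own mean over arrays. The median deviation of the 70 ran from -0.023 in clone 2 replicate 2 to 0.034 in H9 replicate 2. ATP synthase genes had medians of 0.064 and 0.055 in H9 and of -0.024 to 0.024 on the other 6 arrays. Complex IV had 0.052 and 0.040 in clone 3 and -0.029 to 0.013 elsewhere. The 3 complex II genes spread most, from -0.10 to 0.14, and clone 2 had both of the highest values.

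**Figure D5:**
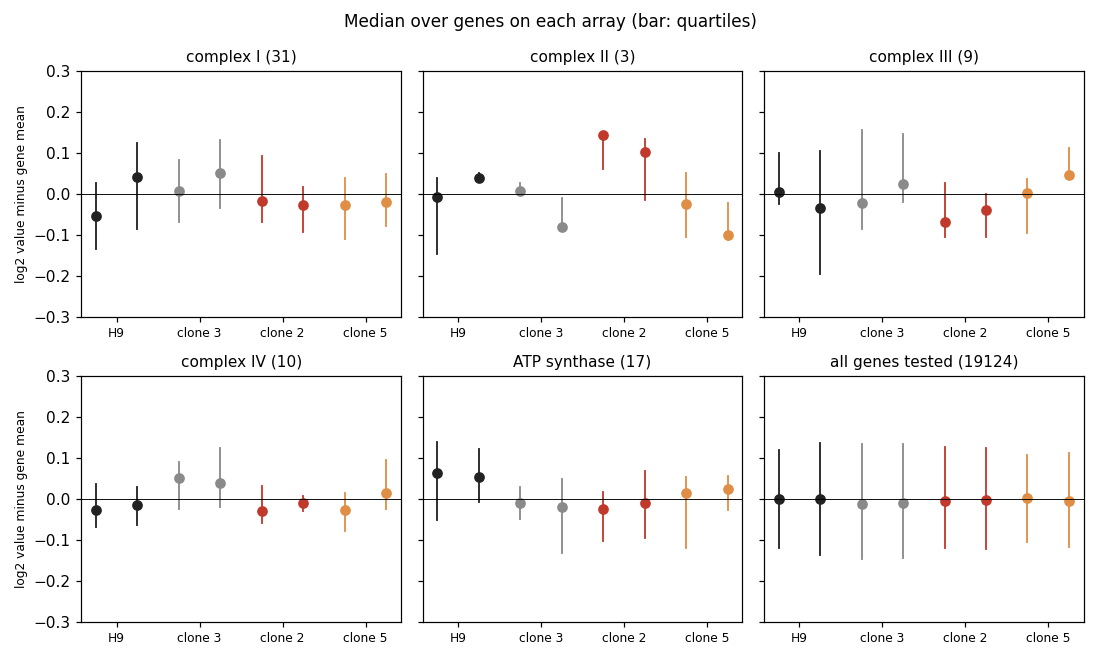
Median over genes of the log2 value minus the gene's mean over the 8 arrays (vertical axis; points), with quartiles (bars), for each array of the 4 lines, by complex and for all genes tested. All medians lie between -0.10 and 0.14, and only complex II, with 3 genes, leaves the range from -0.07 to 0.07.

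Genes that work with the respiratory chain were counted from lists chosen by function. Between ZFX and control lines, 0 genes passed among 50 tested assembly factors, 21 nuclear regulators of mitochondrial genes, 16 genes of the tricarboxylic acid cycle and pyruvate dehydrogenase, 15 of mitochondrial import and the outer membrane and 5 carriers, where 1.68% of all genes tested passed. At that share, lists of this size would hold few or no calls. Their median log2 differences were 0.011, -0.088, 0.018, 0.0094 and 0.033, against -0.0016 for all genes. TFAM, which packages and transcribes mitochondrial DNA, had a log2 difference of -0.09, and PPARGC1A, a coactivator of mitochondrial biogenesis that was detected on 6 of 8 arrays, had 0.03. CYC1, the cytochrome subunit of complex III, had 0.16. CYCS, which encodes cytochrome c, had -0.30 (limma unadjusted p = 0.047), and it was lower in clone 2 than in clone 3 by -0.52 (limma adjusted p = 0.0028). CYC1 was lower in clone 3 than in H9 by -0.26 (limma adjusted p = 0.0222). Against clone 3 it was higher by 0.28 in clone 2 and by 0.30 in clone 5 (limma adjusted p = 0.0179 and 0.0105). These CYC1 contrasts share the clone 3 arrays.

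The tricarboxylic acid cycle feeds the chain with NADH and succinate. Of its 16 tested genes, 5 were higher and 2 lower in clone 3 than in H9, where 9.85% and 9.91% of all genes were, and 5 were higher and 0 lower in clone 2 than in H9 (8.65% and 6.54%). In clone 5 against H9, 1 was higher and 0 were lower (3.14% and 2.41%). All 3 genes of succinyl-CoA ligase, the enzyme that makes succinate, were higher in clone 3 than in H9. SUCLA2, its ATP-forming beta subunit, measured 8.90 and 8.95 in H9, 9.85 and 9.89 in clone 3, 9.59 and 9.57 in clone 2, and 9.01 and 9.04 in clone 5. Clone 3 and clone 2 lay well above H9 and clone 5. The log2 differences from H9 were 0.95 for SUCLA2 (limma adjusted p = 8.3e-10), 0.81 for SUCLG1, the shared alpha subunit (limma adjusted p = 2.3e-07), and 0.56 for SUCLG2, the GTP-forming beta subunit (limma adjusted p = 5.7e-05) in clone 3. In clone 2 they were 0.66, 0.46 and 0.58, all of which passed, and under median scaling those in clone 2 and that of SUCLG2 in clone 3 did not. SDHA, SDHC and SDHD of the next enzyme in the cycle passed in none of these comparisons on the probes used, although a second SDHC probe was lower in clone 3 than in H9 by -0.42 (limma adjusted p = 0.00382 over all kept probes). IDH2, a mitochondrial isocitrate dehydrogenase, was lower in clone 3 than in H9 by -0.38 (limma adjusted p = 0.0065). Of 50 assembly factors, 5 were higher and 3 lower in clone 3 than in H9, shares near or below the 9.85% and 9.91% of all genes. The highest difference among them was that of COX20, a factor for complex IV, at 0.81 (limma adjusted p = 4.3e-05). CHCHD4, an import factor of the intermembrane space, was higher there by 0.55 (limma adjusted p = 6.3e-05).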

How the data were processed

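Total RNA from 8 arrays of 4 lines was amplified and labelled with biotin, per the labels' protocols. The authors deposited linear bead intensity values, a detection p-value beside each, and a second table of processed values. The latter are log2 values by the file's slopes (0.982 to 1.03) against the logarithm of the deposited intensities. Per the submitters' processing notes the software was BeadStudio, and its version and the authors' background correction are not given in the sources used here.

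Here intensities were background-corrected by normexp with negative controls inferred from detection p-values (offset 16), quantile normalized and log2-transformed with limma 3.58.1 in R 4.3.3. Probes detected on at least 2 arrays were kept (23280). Gene names came from the platform annotation, and for each gene the brightest kept probe was tested, which could differ from its other probes (22 of the 70 genes had more than 1). ZFX and control lines were compared with the line as a random block (estimated correlation 0.353), and line pairs in a model of 4 line means, both with an intensity trend in the variance and Benjamini-Hochberg adjustment over all 19124 tests at 0.05. The fits were tested on simulated data. Recovery was required there only for changes larger than any found among the 70 genes, so it gives no measure of power for these.

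Genes named were those called between ZFX and control lines, the extremes of each complex, the 5 largest calls each way in each line pair and the isoform genes; of the other lists, TFAM, PPARGC1A, CYC1, CYCS and ZFX, and up to 4 called genes. Others, such as ATP5PB and NDUFA11 between ZFX and control lines and genes with a called dimmer probe, were named with their values in view. The members, the lists and the motifs were chosen with earlier results of these data known.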

Additional observations from a re-analysis of the deposited data

Results flagged for a closer look

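Of 140 groups of 4 arrays (70 genes, ZFX and control arrays), 5 had an array set apart from the other 3, and chance sets one apart in about 1 of 20 groups. Among the control arrays, NDUFS1, a core subunit of complex I, stood high on H9 replicate 1 at 6.51. UQCRBP1 stood low on H9 replicate 2 at 9.15, and the difference of clone 3 from H9 for this gene rests on that array. ATP5F1B and ATP5PD stood high on clone 3 replicate 1, at 12.76 and 12.47. Among the ZFX arrays, NDUFB8, an accessory subunit of complex I, stood low on clone 5 replicate 2 at 11.59.

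The ZFX lines differed from each other, by the test of clone 5 against clone 2, in NDUFB10 at -0.42 and COX5B at 0.32 on the log2 scale. Effects of the 2 clones against any 1 control line differ by the same amounts.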

How the results depend on the processing

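Between ZFX and control lines the count of 0 calls held under median scaling, without background correction, in the authors' processed values, without an intensity trend, with only genes detected on all 8 arrays, with the mean of a gene's probes, with lines averaged first, with 1 ZFX line, and without any 1 array. ATP5PD was the 1 call without a filter on dim probes and the 1 call with the line ignored. With H9 as the only control 4 genes were called (ATP5PD, NDUFA8, NDUFA9 and NDUFB6), and with clone 3 as the only control 5 (ATP5PD, COX7B, NDUFA11, NDUFS4 and NDUFS7). The median log2 difference of the 70 genes was -0.10 under median scaling, where that of all genes was -0.037, and -0.037 with clone 2 as the only ZFX line; leaving out 1 array it ran from -0.032 to 0.0057. Counts for clone 2 and clone 5 against H9, clone 2 and clone 5 against clone 3, clone 3 against H9 and clone 5 against clone 2 were 0, 0, 1, 0, 1 and 0 under median scaling, and 1, 0, 0, 0, 2 and 0 without an intensity trend; all-gene counts fell too, for clone 2 against H9 from 2905 to 558 and 1434. With the mean of probes clone 5 against H9 had 2. Leaving out 1 array gave 3 to 11, 0 to 6, 1 to 7, 2 to 10, 4 to 12 and 0 to 2 in the same order. Of 37 named calls between lines, 36 were kept without background correction, 34 in the authors' values, 2 under median scaling and 5 without any 1 array. Arrays with the same replicate number share only the number: their deviations correlated at -0.0099 to 0.063 between lines. With the replicate block, 0 genes were called between ZFX and control lines (218 of all genes in place of 321) and no count moved by over 1.5 times. Signs of uncalled differences between ZFX and control lines turned under median scaling for COX4I1 (-0.062), COX6A1 (-0.11), COX8A (-0.065) and ATP5MC1 (-0.078), with H9 as the only control for COX7B (0.073), COX6A1 (-0.010) and ATP5MC1 (-0.024), and with clone 3 as the only control for COX4I1 (-0.067) and ATP5MC2 (0.066). Leaving out 1 array, COX4I1 ran from -0.017 to 0.080, COX6A1 from -0.045 to 0.050, COX8A from -0.021 to 0.054 and ATP5MC1 from -0.014 to 0.066. The cause of these changes was not tested. Alternatives for ATP5PB, NDUFA11 and ATP5F1B between ZFX and control lines, and for the succinyl-CoA ligase genes, COX20 and CHCHD4, were chosen after seeing the data, and none turned a sign.

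The limits are few lines and 2 arrays of each. A subunit transcript level is not the level of an assembled complex, and NDUFC2, NDUFA5 and NDUFB4 were near the detection limit.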
